A study of Homo sapiens with 4 samples.

Results

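LIM homeobox genes encode transcription factors with a pair of LIM domains, which bind protein partners, and a homeodomain, which binds DNA. In the embryo they act in combinations that set cell identity, above all of neurons, and in several organs outside the nervous system. In pluripotent cells such developmental regulators are typically held silent by Polycomb with their promoters poised, so their promoters were examined for trimethylation of lysine 27 of histone H3 (H3K27me3, the Polycomb mark) and of lysine 4 (H3K4me3, which marks promoters in use or held ready).

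The genes are LHX1, LHX2, LHX3, LHX4, LHX5, LHX6, LHX8, LHX9, ISL1 and ISL2, which were taken by symbol and gave 10 of the 20242 promoters, with 1 promoter for each gene. The cells were JMJD3c-hESCs, derived from SEES-3, a line of human embryonic stem cells, which carry the reverse Tet-transactivator and a piggyBac transgene for the HA-tagged catalytic domain of the H3K27 demethylase JMJD3 with a nuclear localization signal. They were selected as stable clones, and how many clones were used is not given in the sources used here. Untreated cells (−Dox) and cells given doxycycline at 1 µg/ml (+Dox) were both kept feeder-free in StemFit AK-03 medium and collected on day 3. Both carry the transgene, and no library here received doxycycline without it, so effects of doxycycline and of JMJD3c cannot be told apart in these libraries. In the paper a line with catalytically inactive JMJD3c, given doxycycline, showed no significant change in expression of representative developmental genes. No library here comes from that line. In human embryonic stem cells JMJD3c given as synthetic mRNA lowered H3K27me3 on the paper's immunoblots. Overexpression of the inactive form did not. Chromatin immunoprecipitation sequencing gave 1 library for each mark and condition, 4 in all, so no difference below has a replicate check and no p-value is given.

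Values are signal, that is, read coverage scaled by the authors to the reads in the library and measured within 3 kb of the start of transcription. A promoter above 20 for both marks was called bivalent, after the study's methods. Intervals are 95% counting intervals from approximate read numbers, exact Poisson for a signal and exact Clopper-Pearson for a +Dox/−Dox ratio, and compare libraries rather than conditions. The cells are a bulk population, so less mark per cell and fewer cells with the mark cannot be told apart, nor can both marks in the same cells from each mark in different cells. The windows held about 172602 to 971384 reads per library. Of 12 pluripotency markers 11 had H3K4me3 above 20 in both conditions. The exception was POU5F1, measured at a start 10049 bp away from its canonical one. None of the 4 blood or 3 hepatocyte markers was above 20 in either condition, against 3 of 6 fibroblast markers in both (COL1A1, COL1A2 and THY1).

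Without doxycycline H3K27me3 was high at all of these genes but LHX3. H3K27me3 was above 20 at 9 of the 10 promoters, against 11% of all promoters, and H3K4me3 at 8 of the 10, against 63.7%. The same 8 were bivalent, against 9.42% of all promoters. LHX2, which directs the development of the eye and forebrain, had the 9th highest H3K27me3 signal of all promoters. The median of the 10 genes was 123 for H3K27me3 and 31.9 for H3K4me3, where all promoters had medians of 6.09 and 41.3. LHX8 was above 20 for H3K27me3 only (1.58% of all promoters), and LHX3 for neither mark (34.8%).

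The sequences just upstream of 4 starts are shown because they belong to the genes on which the results turn. LHX2 had the most H3K27me3, LHX3 had neither mark, and the H3K4me3 changes were largest at ISL1 and LHX6. Each is the 250 bases before the deposited start, read 5′ to 3′ on the gene's strand from GRCh37, the assembly behind hg19, with CG dinucleotides in capitals. They are chr9:126773797-126774046 on the plus strand for LHX2, chr9:139096975-139097224 on the minus strand for LHX3, chr5:50679032-50679281 on the plus strand for ISL1 and chr9:124991221-124991470 on the minus strand for LHX6.
LHX2: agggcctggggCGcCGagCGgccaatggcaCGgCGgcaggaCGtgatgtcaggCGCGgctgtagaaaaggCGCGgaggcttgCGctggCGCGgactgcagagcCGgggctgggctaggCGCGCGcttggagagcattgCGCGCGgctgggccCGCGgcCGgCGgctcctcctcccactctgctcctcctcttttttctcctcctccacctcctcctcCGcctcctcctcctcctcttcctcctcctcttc
LHX3: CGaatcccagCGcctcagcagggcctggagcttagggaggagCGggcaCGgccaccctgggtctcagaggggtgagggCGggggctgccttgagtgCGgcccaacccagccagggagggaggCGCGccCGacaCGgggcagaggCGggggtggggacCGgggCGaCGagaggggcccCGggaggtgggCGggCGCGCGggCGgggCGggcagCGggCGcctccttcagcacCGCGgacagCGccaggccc
ISL1: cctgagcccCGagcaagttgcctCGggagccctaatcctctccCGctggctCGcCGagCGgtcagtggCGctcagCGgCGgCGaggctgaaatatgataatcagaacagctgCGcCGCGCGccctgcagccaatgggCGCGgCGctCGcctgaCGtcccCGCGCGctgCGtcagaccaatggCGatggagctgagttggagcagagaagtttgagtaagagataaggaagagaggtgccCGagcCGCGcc
LHX6: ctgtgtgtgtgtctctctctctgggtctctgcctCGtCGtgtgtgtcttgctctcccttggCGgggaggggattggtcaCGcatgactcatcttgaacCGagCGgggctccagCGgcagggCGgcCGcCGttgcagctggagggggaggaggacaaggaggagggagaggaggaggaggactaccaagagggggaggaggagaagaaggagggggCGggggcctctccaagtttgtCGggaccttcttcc

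These stretches held 25 CG dinucleotides at LHX2, 26 at LHX3, 27 at ISL1 and 12 at LHX6, where the median of all promoters was 16. At least as many as at ISL1 were found in 22.3% of all such stretches, and at least as many as at LHX6 in 61.4%. Over the whole measured window the 9 genes with a known position had a median of 283 CG dinucleotides, against 219 in bivalent, 180 in H3K4me3-only and 79 in unmarked promoters. The window of LHX2 had 373, a number reached by 1.55% of windows, and that of ISL1 had 165, the fewest of the 9.

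The genes were then taken in their 5 paralog pairs. LHX1 and LHX5 are close relatives, the former being needed for the head organizer and the kidney and the latter acting in the forebrain. H3K27me3 at LHX1 (ENSG00000132130) was 207 (176 to 241) in −Dox and 126 (103 to 153) in +Dox cells. The ratio of 0.612 (0.473 to 0.789) was the lowest of the 9 genes with H3K27me3 above 20, and LHX1 alone had an interval below 1. H3K4me3 at LHX1 was 85.8 and 95.4, a ratio of 1.11 (0.810 to 1.53), so the marks had ratios on opposite sides of 1 although only that of H3K27me3 lay beyond counting error. The deposited transcript of LHX1 was not matched to the annotation used, in which the gene's canonical start is at position 35294772 of chromosome 17. At LHX5 (ENSG00000089116, chromosome 12, window 113906676 to 113912676) H3K27me3 was 100 in −Dox and 82.4 in +Dox cells, for a ratio of 0.824 (0.585 to 1.16). Its H3K4me3 was 51.0 and 47.7, a ratio of 0.936 (0.602 to 1.44). The log2 H3K27me3 ratio of LHX1 minus that of LHX5 was −0.43 ± 0.30 (SE from counting; −1.02 to 0.16), so LHX1 was not separated from LHX5 at this depth. The antisense gene LHX5-AS1 starts in the same window, and these reads do not separate the genes.

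LHX2 and LHX9, the latter a regulator of gonad formation, had the highest H3K27me3 of the family in both conditions. LHX2 (ENSG00000106689, chromosome 9, 126771047 to 126777047) had 251 (218 to 289) in −Dox and 258 (224 to 295) in +Dox cells, a ratio of 1.03 (0.841 to 1.25). LHX9 (ENSG00000143355, chromosome 1, 197878635 to 197884635) had 218 (186 to 253) and 229 (197 to 264), a ratio of 1.05 (0.847 to 1.30). Their H3K27me3 log2 ratios differed by −0.03 ± 0.21 (−0.44 to 0.38). Neither H3K27me3 interval left 1, and the promoters ranked 9th and 36th of all in −Dox and 40th and 66th in +Dox cells. H3K4me3 was 37.6 and 40.6 at LHX2, a ratio of 1.08 (0.659 to 1.76). At LHX9 it was 22.8 and 15.3, a ratio of 0.671 (0.308 to 1.39). LHX9 thus went from bivalent to H3K27me3-only, but on about 24.1 and 12.3 reads with an interval that included 1. The canonical start of LHX9 is 4867 bp from the position measured and not in the window, and LHX2-AS1 starts in the LHX2 window. LHX9 has 3 annotated coding starts outside its window and LHX2 has 2.

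LHX3 and LHX4, which act together in the pituitary and in motor neurons, differed in their marks, as LHX4 had both and LHX3 neither. At LHX4 (ENSG00000121454, chromosome 1, 180196399 to 180202399) H3K27me3 was 68.1 (51.1 to 88.9) in −Dox and 61.9 (45.9 to 81.6) in +Dox cells, for a ratio of 0.909 (0.606 to 1.36). Its H3K4me3 was 93.2 and 76.8, a ratio of 0.824 (0.590 to 1.14), and in −Dox cells this was the highest H3K4me3 of the family. LHX3 (ENSG00000107187, chromosome 9, 139093974 to 139099974) had H3K27me3 values of 1.14 and 2.24, about 1 and 2 reads, which allows no ratio. The upper bounds of these values, 6.86 and 8.56, lay under the signal of every other member. H3K4me3 at LHX3 was 8.55 and 5.59, a ratio of 0.654 (0.161 to 2.25). The LHX3 start is the canonical one, but 1 further annotated coding start of LHX3 lies outside the window and was not measured. Its window was rich in CG dinucleotides (294). At least as many were found in 6.39% of all windows. Of 1196 other windows with a number within 10% of that of LHX3, 5.94% had neither mark above 20 in −Dox cells. Among 955 other windows with a GC content within 2 percentage points of that of LHX3 the share was 22.1%. No input library was used, and whether reads from the LHX3 window were poorly recovered was not tested.

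LHX6 and LHX8 act in the ventral forebrain, LHX6 in cortical interneurons and LHX8 in cholinergic neurons, and their H3K4me3 moved apart. At LHX6 (ENSG00000106852, chromosome 9, 124988220 to 124994220) H3K4me3 was 36.2 (25.6 to 49.6) in −Dox and 12.7 (6.13 to 23.2) in +Dox cells. The ratio was 0.35 (0.157 to 0.712), on about 38.2 and 10.2 reads, the only H3K4me3 interval of the family below 1, against 3.13% of all promoters and 10.2% of bivalent ones. H3K27me3 at LHX6 was 145 (120 to 175) and 148 (123 to 177), a ratio of 1.02 (0.784 to 1.33). LHX6 therefore left the bivalent class through H3K4me3 while the interval of its H3K27me3 ratio included 1, a passage to H3K27me3-only made by 7.24% of bivalent promoters. LHX8 (ENSG00000162624, chromosome 1, 75591119 to 75597119) had H3K4me3 values of 18.0 and 24.6, a ratio of 1.37 (0.693 to 2.72), and so crossed 20 in the opposite direction, with an interval that included 1 (5.64% of H3K27me3-only promoters became bivalent). Its H3K27me3 was 88.2 (68.7 to 112) and 75.3 (57.6 to 96.8), a ratio of 0.854 (0.595 to 1.22). The H3K4me3 log2 ratio of LHX6 was lower than that of LHX8 by a difference of −1.97 ± 0.69 (−3.32 to −0.62). The 99% interval, which allows for the 5 pairs of 1 mark but not for both marks, was −3.74 to −0.20. This was the only pair with an interval that excluded 0 for either mark, and the scaling of the libraries cancels in it. The canonical start of LHX8 is 5954 bp away from the one measured and outside the window. Further annotated coding starts outside the window number 3 at LHX6 and 1 at LHX8.

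ISL1 and ISL2 are motor neuron determinants, and ISL1 also marks cardiac progenitors and pancreatic endocrine cells. H3K4me3 at ISL1 (ENSG00000016082, chromosome 5, 50676282 to 50682282) was 20.8 (13.0 to 31.5) in −Dox and 39.1 (26.7 to 55.4) in +Dox cells. Its ratio of 1.88 (1.06 to 3.41) was the highest of the family and the only H3K4me3 interval above 1, against 1.82% of all promoters and 1.63% of bivalent ones. That interval included 1 when libraries were scaled on promoters of low signal, or with 4 data points taken per read. H3K27me3 at ISL1 was 62.4 (46.1 to 82.5) and 57.8 (42.4 to 76.9), a ratio of 0.927 (0.607 to 1.41), an interval that included 1. ISL1-DT starts in the same window. At ISL2 (ENSG00000159556, chromosome 15, 76626114 to 76632114) H3K27me3 was 172 (144 to 203) in −Dox and 158 (132 to 188) in +Dox cells, for a ratio of 0.922 (0.718 to 1.18). Its H3K4me3 was 27.6 and 36.2, a ratio of 1.31 (0.756 to 2.27). The difference between ISL1 and ISL2 was 0.01 ± 0.34 (−0.67 to 0.68) for the H3K27me3 log2 ratio and 0.52 ± 0.55 (−0.56 to 1.60) for H3K4me3.

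**Figure D1:**
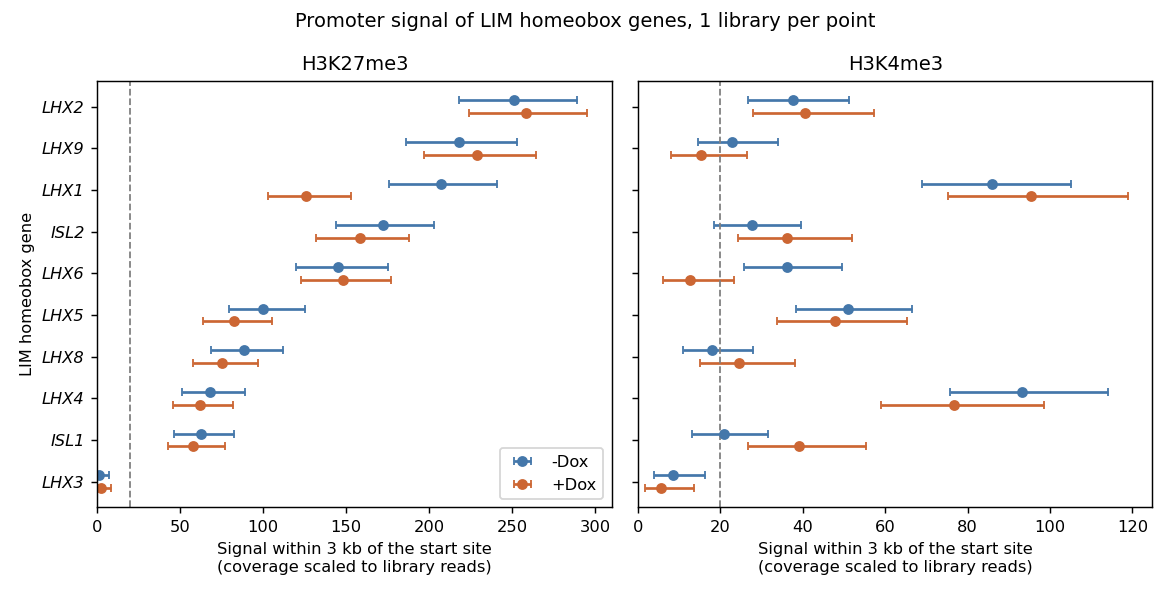
Signal of H3K27me3 (left) and H3K4me3 (right) at each gene in −Dox (blue) and +Dox (orange) cells, 1 library per point, with 95% counting intervals and the threshold of 20 dashed. The LHX1 points for H3K27me3 stand apart at 207 and 126, and for H3K4me3 LHX6 falls below 20 while ISL1 lies at 39.1 in +Dox cells.

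In order of H3K27me3 the −Dox cells had LHX2, LHX9, LHX1, ISL2, LHX6, LHX5, LHX8, LHX4, ISL1 and LHX3. Neighbours in this order differed beyond counting error at 2 places, between LHX6 and LHX5 (1.45 times, 1.08 to 1.96) and between ISL1 and LHX3. In +Dox cells LHX1 moved from 3rd to 5th place, below ISL2 and LHX6, and the other 9 genes kept their order. In +Dox cells ISL2 exceeded LHX6 by 1.07 times (0.824 to 1.38) and LHX6 exceeded LHX1 by 1.17 times (0.894 to 1.54), so these neighbours did not differ beyond counting error, whereas LHX9 and ISL2 (1.45 times, 1.15 to 1.83) and LHX1 and LHX5 (1.53 times, 1.12 to 2.12) did. For H3K4me3 LHX4 and LHX1 led in −Dox cells, and LHX1 differed from the next gene, LHX5, by 1.68 times (1.19 to 2.40). In +Dox cells LHX1 and LHX4 led, and LHX6 was in 9th place after 5th in −Dox cells, not separated from LHX9 above it (1.21 times, 0.483 to 3.08).

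The study asked if demethylase activity on H3K27 could lift the hold on developmental regulators and switch them on, and the promoter levels of H3K27me3 bear on the first step. None of the 9 genes with H3K27me3 above 20 had a ratio below 0.5, against 21.5% of all and 40.8% of bivalent promoters. By −Dox level this share was 37.2% of bivalent promoters with H3K27me3 between 50 and 100 and 12.5% of those at 100 or more, the ranges in which the 8 bivalent genes lay. The interval lay below 1 at 1 of the 10 genes, LHX1 (7.18% of all and 48.6% of bivalent promoters), and above 1 at none (1.54% and 2.15%). Of the 8 bivalent genes 3 had a ratio above 1, LHX2, LHX6 and LHX9, against 12.4% of bivalent promoters. The median log2 H3K27me3 ratio was −0.11 over the 10 genes and −0.12 without LHX3, where it was −0.14 over all promoters and −0.81 over bivalent ones. After scaling to the same total it was 0.12 over the 10 genes, with LHX4, ISL1 and ISL2 passing from below to above 1 and LHX8 reaching 1 (0.7 to 1.44), so no direction can be given to the family. LHX1 remained below 1 under that scaling, at 0.720 (0.557 to 0.928).

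**Figure D2:**
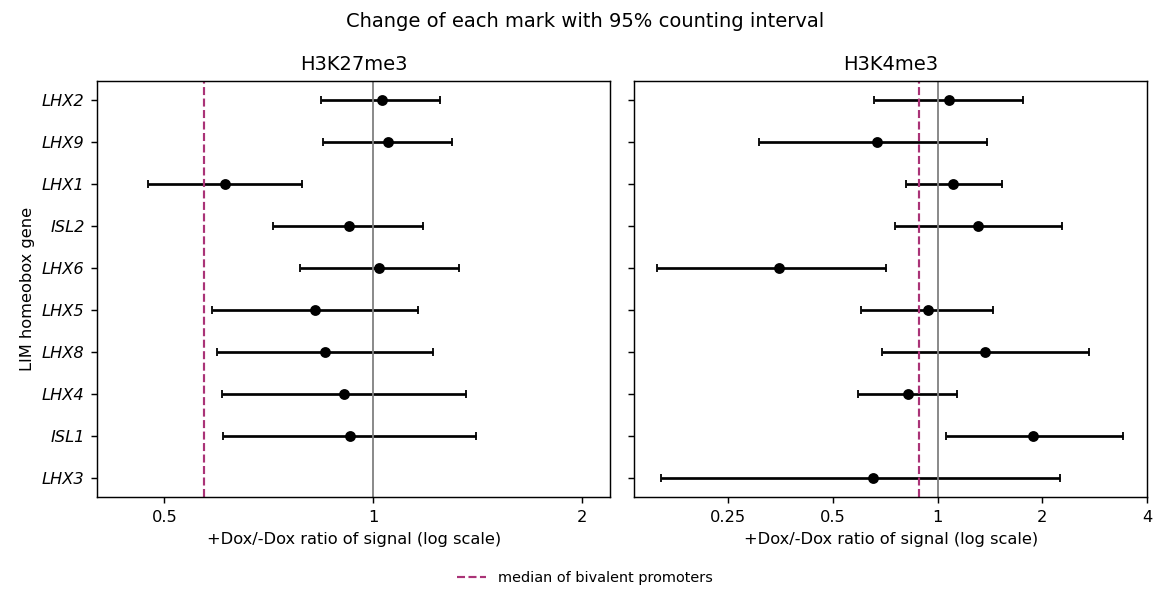
Ratio of +Dox to −Dox signal (log axis) for H3K27me3 (left) and H3K4me3 (right), with 95% counting intervals, a grey line at 1 and the median of bivalent promoters dashed (0.570 and 0.884). H3K27me3 at LHX3 is left out, as it rests on about 1 and 2 reads.

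Of the 8 bivalent genes, 7 had an H3K27me3 interval wholly above the median bivalent ratio of 0.570, against 18.8% of bivalent promoters. The exception was LHX1. These shares are not compared at equal level. Of the 1907 bivalent promoters 1084 lay between 20 and 50, where fewer reads give wider intervals and none of the 8 genes lay. The H3K27me3 ratio of bivalent promoters was higher where their −Dox signal was higher. Of bivalent promoters with a −Dox signal of at least 100, 304 in all, the median ratio was 0.857, and the 6 family members among them had ratios from 0.612 to 1.05, 4 above that median. LHX5 and LHX1 were below it. Of the 519 bivalent promoters between 50 and 100 the median was 0.603, and ISL1 and LHX4 were above it at 0.927 and 0.909. Ratios of at least 0.8 were found at 56.6% of bivalent promoters at 100 or more and at 23.7% of those between 50 and 100. When class and level were both taken from the mean of the conditions, which brings in LHX8 and leaves out LHX9, the 402 bivalent promoters between 50 and 100 had a median of 0.684, and LHX5, LHX8, LHX4 and ISL1, which fell in this range, had ratios of 0.824 to 0.927. The 208 with a mean of at least 100 had a median of 0.974, and of ISL2, LHX1, LHX2 and LHX6 in that range 2 lay above it, LHX2 and LHX6. The part of the level in these counts was not tested.

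**Figure D3:**
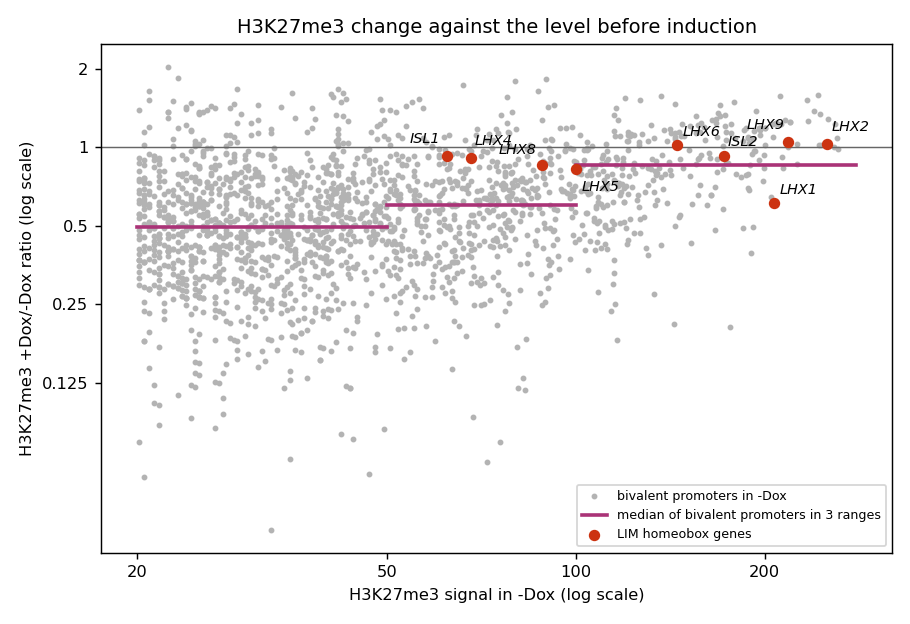
H3K27me3 ratio of +Dox to −Dox against the −Dox signal (log axes) for bivalent promoters (grey), with their medians in 3 ranges of signal (0.496, 0.603 and 0.857), and for 9 LIM homeobox genes (red), of which LHX8 was H3K27me3-only. ISL1 and LHX4 lie above the median of their range and LHX1 below that of its own.

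The H3K27me3 signal, scaled to library reads, remained above 20 at all 9 genes that had it, against 57.7% of promoters above 20 in −Dox cells. Of all promoters 6.73% were above 20 in +Dox cells. The 9 genes started from 62.4 or more, and the median of bivalent promoters in −Dox cells was 43, so these shares are not compared at equal level. Of the 8 bivalent genes 6 stayed bivalent (51% of bivalent promoters), namely LHX1, LHX2, LHX4, LHX5, ISL1 and ISL2. Changes of class thus came from H3K4me3 alone, with values below 20 in +Dox cells at LHX6 and LHX9, which made 2 genes H3K27me3-only (1.66% of all promoters), and above 20 at LHX8. H3K4me3 was above 20 at 7 genes in +Dox cells, against 62.7% of all promoters. These 7 genes were the bivalent ones in +Dox cells, against 5.07% of all promoters. The step from 8 to 7 bivalent genes had no fixed direction, since at a threshold of 30 the numbers were 5 and 6, at 40 they were 3 and 4, and at 10 both were 9. The median log2 H3K4me3 ratio was 0.01 over the 10 genes, where it was −0.02 over all and −0.18 over bivalent promoters. H3K4me3 ratios were above 1 at 5 genes (47.4% of all and 32.4% of bivalent promoters), ISL1, LHX8, ISL2, LHX1 and LHX2, and below 1 at LHX4, LHX5, LHX6, LHX9 and LHX3.

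**Figure D4:**
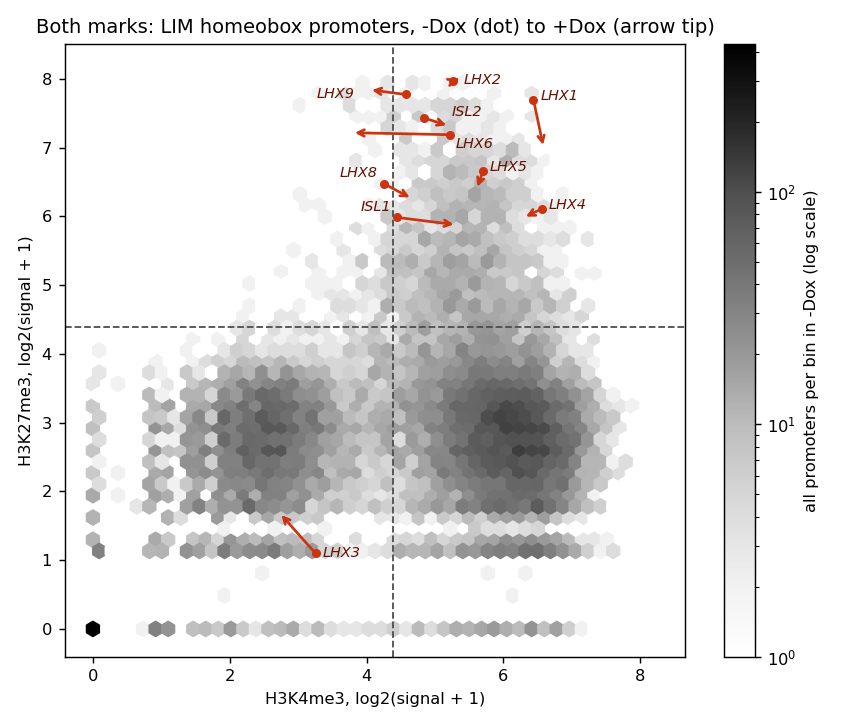
H3K27me3 against H3K4me3 as log2(signal + 1), with the number of all promoters in −Dox cells in grey and each LIM homeobox gene as an arrow from −Dox (dot) to +Dox (tip), and 20 dashed for both marks. The arrows of LHX6 and ISL1 run sideways to lower and higher H3K4me3, and that of LHX1 points down.

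Other genes of the LIM homeodomain system were taken from a list of 12. The 2 remaining LIM homeobox genes and the LIM-only gene LMO1 were bivalent in both conditions. H3K27me3 at LMX1A, a factor of midbrain dopamine neurons, was 138 and 95.1, a ratio of 0.691 (0.509 to 0.934). This was the only H3K27me3 interval below 1 in the list of 12, against 7.18% of all and 48.6% of bivalent promoters. At LMX1B, which acts in limb and kidney, H3K27me3 was 37.3 and 42.5, a ratio of 1.14 (0.676 to 1.93). At LMO1 it was 70.7 and 65.6, a ratio of 0.928 (0.625 to 1.38). The cofactor LDB1, which bridges LIM domain proteins, was H3K4me3-only with 91.5 and 94.0 for H3K4me3, as were LDB2, LMO4, SSBP2, SSBP3, SSBP4 and RLIM. SSBP4, whose family stabilizes LDB proteins, had the only H3K4me3 interval of the list that excluded 1, with 93.2 and 60.0 and a ratio of 0.644 (0.447 to 0.918). Of all promoters 3.13% had an H3K4me3 interval below 1 and 1.82% had one above 1. LMO2 and LMO3 were unmarked.

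The promoters of other genes nearest to the median profile of the family over the 4 libraries, by Euclidean distance on log2(signal + 1), were NR2F1 (0.287), NCR3LG1 (0.292), SOX1 (0.327), FAM43B (0.351) and PRTG (0.383). NR2F1, a nuclear receptor of the developing brain, had H3K27me3 values of 119 and 104 and H3K4me3 values of 29.9 and 30.9. SOX1, a neural progenitor factor, had 134 and 108 for H3K27me3 and 32.8 and 30.9 for H3K4me3. The family members themselves lay farther from their median, ISL2 nearest at 0.828 and LHX3 farthest at 8.28.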

How the data were processed

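H3K27me3 and H3K4me3 were measured in −Dox and +Dox JMJD3c-hESCs, with 1 library per group. The authors sequenced single-end reads of 150 bases on a MiSeq, mapped them to hg19 with Bowtie2, removed mitochondrial reads and deposited ngs.plot signal, that is, coverage scaled to library reads, within 3 kb of the start of 1 transcript per Ensembl gene. The submitters' processing notes also name CASAVA 1.4. Other versions, and whether the stated scaling to the density beyond transcript ends was applied, are not given in the sources used here. No input library was used here.

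All values were whole multiples of a step (within 0.01 of a step), which was 0.373 in both +Dox libraries, 0.380 in the −Dox library of H3K27me3 and 0.285 in that of H3K4me3. Steps taken as 1 read at 1 data point gave about 2682085 reads for each +Dox library, and 2629351 and 3509245 for the −Dox ones. Why both +Dox libraries share a step is not given in the sources used here. If 1 of them was scaled with the read number of the other, all +Dox/−Dox ratios of its mark would be off by a constant factor. Whether this happened was not tested. A read covered 3.32 to 3.35 data points, estimated from promoters with values of 5 to 8 steps, taken as 2 reads. A signal of 20 was about 15.7 to 21.1 reads. As no molecular identifiers were used, reads may be copies of 1 molecule, and intervals cover counting error only. The difference between paralogs was the difference of log2 ratios, with a normal interval from the same read numbers. The interval code was tested on simulated data.

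Python 3.11.15, NumPy 2.4.6, SciPy 1.17.1, pandas 2.3.3 and matplotlib 3.10.9 were used. Positions are 1-based on GRCh37 from GENCODE 44, by transcript identifier, with 18244 (90.1%) of transcripts and 9 of the 10 genes matched. Named genes were the 10 members, a list of 12 LIM system genes, the 5 promoters nearest in profile, 3 comparison groups and cell type markers. Members and lists were chosen with earlier results of these data known. Alternatives were other scalings, class thresholds, pseudocounts, a minimum mean signal of 10, 1 row per gene symbol, and 3 or 4 data points per read. Pairs were also given 99% intervals.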

Additional observations from a re-analysis of the deposited data

How the results depend on the processing

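No paired analysis was possible because every arm had a single library, which also means that none could be omitted. Of 60 recomputed summary values 54 stayed within 1.5 times the reported count or, for a median, within the second lowest and second highest gene. Some of the 60 took 1 row per gene symbol, which could change nothing because each gene had 1 promoter. All 78 recomputed values of single genes and of the comparison with the bivalent median stayed within their interval or 1.5 times. That comparison was added after seeing the data. Single genes were recomputed only with rescalings and pseudocounts and judged against wide counting intervals, so staying within them says little about stability. Genes bivalent in −Dox cells numbered 5 at a threshold of 30 and 3 at 40, and in +Dox cells 6 at 30 and 4 at 40, so that the fall from 8 to 7 became a rise. At 10 both numbered 9. No H3K4me3 interval lay above 1 (0 genes, ISL1 being lost) with scaling over low promoters, which multiplies +Dox H3K4me3 by 0.941, or with 4 data points per read. The median log2 H3K27me3 ratio was 0.12 after scaling to the same total, which multiplies +Dox H3K27me3 by 1.18 and assumes an unchanged total over promoters. In the paper's immunoblots the total H3K27me3 of the cells fell. H3K4me3 at LHX6, LHX9, LHX8 and ISL1 rested on about 10 to 38 reads. It rested on about 9.03 and 4.5 reads at LHX3, 29.2 and 29.1 at ISL2, and 39.7 and 32.7 at LHX2. Smaller changes at all of these genes were not detectable.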

Other observations

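Values of 3 further groups of developmental homeobox genes are given beside those of the LIM homeobox genes as counts and medians only, and no difference between groups was tested. Of 14 NKX genes 8 were bivalent without and 3 with Dox. The median H3K27me3 ratio was 1.13 and the median H3K4me3 ratio 0.65. The H3K4me3 interval lay below 1 at 3 of these genes and the H3K27me3 interval above 1 at 4. Of 8 brain patterning genes (OTX, EMX, GBX and EN) 5 were bivalent without and 3 with Dox. Their median H3K27me3 ratio was 0.998, and the interval lay below 1 at 3 and above 1 at 2. Of 7 neural POU genes 6 were bivalent without and 5 with Dox, at median ratios of 0.948 for H3K27me3 and 0.869 for H3K4me3. The LIM homeobox genes had median ratios of 0.924 and 1.01.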
